A study of Homo sapiens with 6 samples.

Results

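The genes described here carry pyruvate into mitochondria, run the citric acid cycle and burn fatty acids. They are the 42 genes listed for these pathways, matched by gene name in a table of 20263 genes, and all 42 were found. The samples were RNA sequencing libraries from THP-1, a human acute monocytic leukaemia cell line. A group of 3 shGOT1 libraries carried a short hairpin RNA that lowers GOT1, and the control group held 3 libraries labelled shNC, with the genotype given as wt. No treatment, time point or batch is given in the labels, and the series' title places the comparison in work on ferroptosis, an iron-dependent form of cell death. The labels give 1 name for the knockdown cells and 1 for the control cells, do not give the hairpin's sequence, and do not say whether either is a clone or a pool. The replicates are called biological, with no statement of separate cultures, so a p-value here reflects only how far these libraries vary.

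GOT1 is the cytosolic aspartate aminotransferase, which interconverts aspartate and alpha-ketoglutarate with oxaloacetate and glutamate and works in the malate-aspartate shuttle. Pyruvate crosses the inner mitochondrial membrane through the MPC carrier and is then either oxidised to acetyl-CoA by the pyruvate dehydrogenase complex or carboxylated to oxaloacetate by pyruvate carboxylase. Acetyl-CoA from pyruvate or from fatty acids enters the citric acid cycle through citrate synthase, and citrate that leaves the mitochondrion is split again to feed lipid synthesis. Fatty acids enter as carnitine esters, are shortened in repeated rounds of dehydrogenation, hydration, oxidation and thiolysis, and pass electrons to the respiratory chain through the electron transfer flavoproteins.

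GOT1 itself was at 3.27, 2.87 and 3.33 TPM with shGOT1 against 15.3, 16.7 and 16.3 TPM with shNC, so the groups did not overlap and matched their labels. The log2 fold change, shGOT1 over shNC, was -2.45 (SE 0.0906, adjusted p = 1.26e-05 in edgeR), which is 5.45-fold lower. Library totals ran from 26734767 to 39144890 counts in shGOT1 and from 26226977 to 28712260 counts in shNC. The first principal component, with 57.56% of the variance, separated the groups, and shNC replicate 3 stood apart from the other shNC libraries on the second. Of 13 monocytic markers 13 had a mean of at least 1 TPM, and their summed level was 2275 to 2390 TPM in shGOT1 and 2667 to 2722 TPM in shNC. Of these markers 3 were called higher and 8 lower, and LYZ, which encodes lysozyme, carried the direction of the sum, with 83.9, 66.0 and 66.7 TPM in shGOT1 and 534, 554 and 568 TPM in shNC. Without LYZ the other 12 summed to 2209 to 2307 TPM in shGOT1 and 2113 to 2154 TPM in shNC, so shGOT1 was then the higher. CEBPA, the highest of these 12, was at 787, 807 and 735 TPM in shGOT1 and 568, 572 and 600 TPM in shNC. The sums thus follow a few high genes and do not give the direction of most markers. The 7 lymphocyte markers summed to 16.6 to 20.3 TPM in shGOT1 and 10.4 to 11.4 TPM in shNC, with CD3E, CD2, MS4A1 and TRBC1 at 0 throughout. The 6 erythroid markers summed to 2.96 to 3.81 and 3.39 to 5.32 TPM, with HBG1 at 0. The 7 epithelial and fibroblast markers summed to 8.06 to 8.16 and 4.97 to 5.26 TPM, with EPCAM, CDH1 and COL1A2 at 0.

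Among the 42 genes 11 were higher and 11 were lower in shGOT1, and 20 did not pass the threshold, a Benjamini-Hochberg adjusted p under 0.05 in edgeR's quasi-likelihood test on counts. Over the 13735 genes tested, 44.6% were called in either direction, 21.9% higher and 22.8% lower, so the members' share of 52.4% lay near the background. All 42 passed the filter on low counts, and mean levels ran from 3.92 TPM for PC in shGOT1 to 278 TPM for IDH2 in shGOT1. Changes were small: the median log2 fold change of the 42 genes was -0.01 and the median size of a change 0.17, beside 0.00 and 0.25 over all genes tested. Only PC was called with a log2 fold change of at least 0.5 in size, 1 of 42, whereas 18.6% of all genes tested were. The TPM values of the groups did not overlap for 24 of the 42 genes, 16 of them higher and 8 lower, against 55.2% of all genes tested. Over all genes tested 66.4% of the calls in limma on log2(TPM + 1) were higher, so this lean is not particular to the 42 genes. In bulk RNA a lower share of cells in a given state and less RNA per cell cannot be told apart, and the part played by the monocytic markers that changed was not tested.

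**Figure D1:**
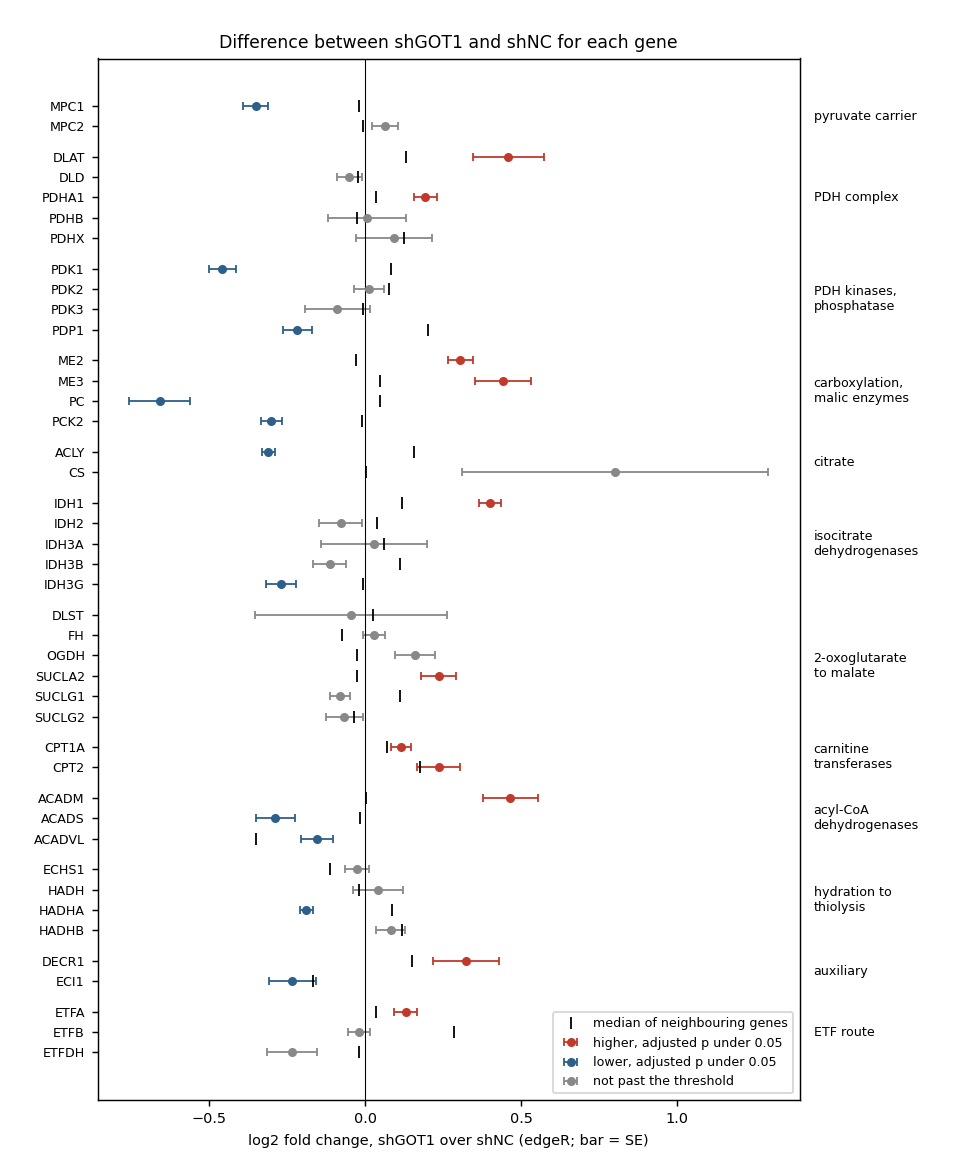
Log2 fold change of shGOT1 over shNC from edgeR for each of the 42 genes, grouped by role, with bars of 1 SE. Called genes are coloured by direction and lie between -0.66 for PC and 0.47 for ACADM, while CS at 0.80 has a wide bar and was not called.

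Levels below are in TPM, a scale relative to gene length and library total, and fold changes come from counts. In limma on log2(TPM + 1), log2 fold changes lay above those from counts by a median of 0.10 over all genes tested. Single genes departed from this median shift, and a gene can look higher in TPM and not in counts. The split of calls moved with the shift, from 49% higher with counts to 66.4% higher in limma on log2(TPM + 1). Among the members it went from 11 higher and 11 lower to 13 higher and 6 lower. After median-of-ratios scaling of TPM between libraries the median shift was -0.0021, and 49% of all calls were higher. None of the 22 called genes turned its direction in any of the 17 alternative settings that gave it a value, and 8 were called in all of them: IDH1 and ACADM as higher, and IDH3G, PDK1, PCK2, ACLY, MPC1 and HADHA as lower. Without shGOT1 replicate 2 or without shGOT1 replicate 3 the number called higher was 6 in place of 11.

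**Figure D2:**
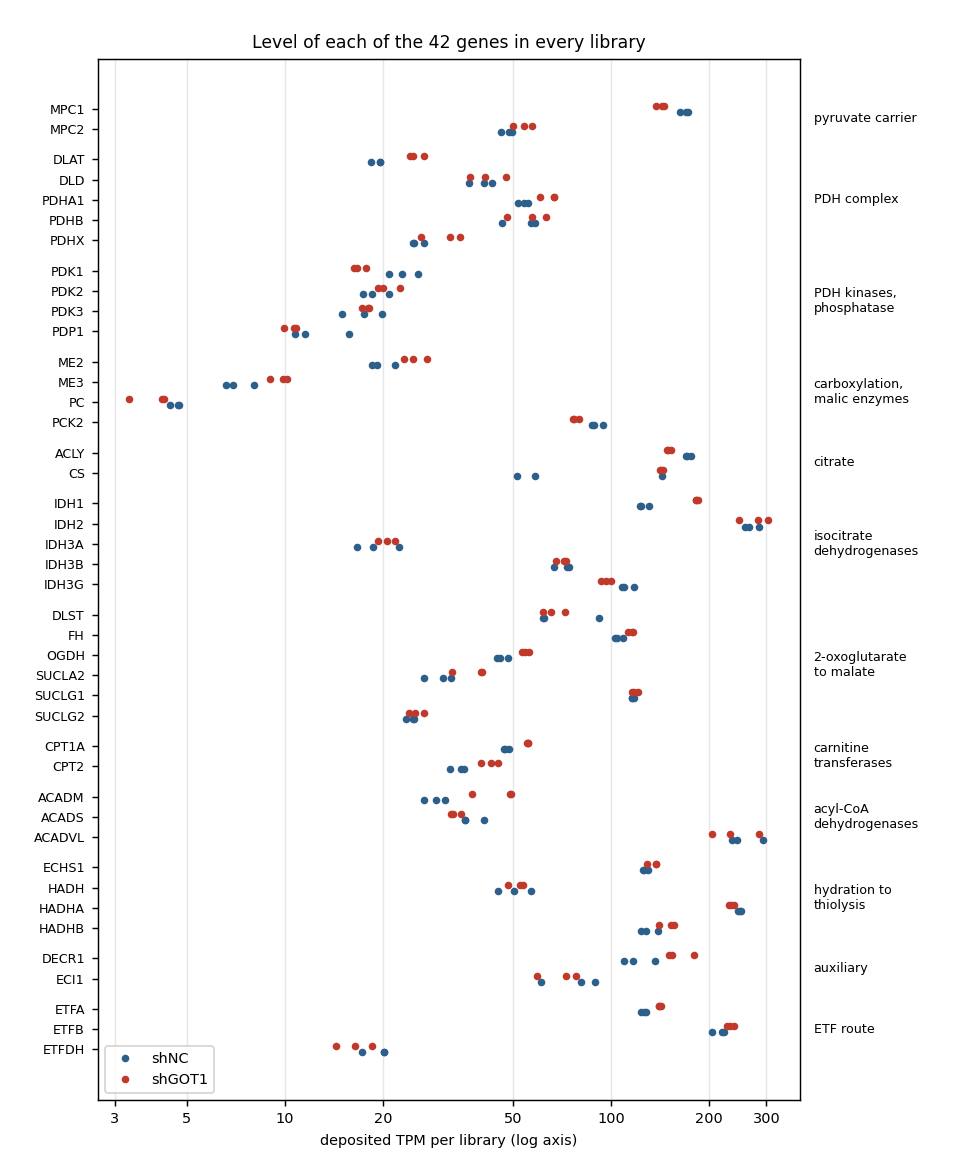
TPM of the 42 genes in each of the 6 libraries on a log axis, grouped by role, with shGOT1 and shNC in different colours. In most rows the points of both groups lie close together, and CS shows 2 shNC libraries at 51.6 and 58.4 TPM apart from the other libraries, at 141 to 145 TPM.

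The pyruvate carrier is built from MPC1 and MPC2, and MPC1 passed the test while MPC2 did not. MPC1 was at 146, 143 and 137 TPM with shGOT1 against 169.5, 163 and 173 TPM with shNC. Every shGOT1 library lay below every shNC library, with a log2 fold change of -0.35 (SE 0.0401, adjusted p = 0.000877 in edgeR). MPC2, its obligate partner, was at 49.9, 57.1 and 54.1 TPM with shGOT1 against 48.5, 49.7 and 46.0 TPM with shNC. The TPM values did not overlap, with shGOT1 the higher, but the count test gave 0.06 (adjusted p = 0.271 in edgeR), and reads of DCAF6, which overlaps MPC2 on the opposite strand, could be split between both.

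In the pyruvate dehydrogenase complex, which turns pyruvate into acetyl-CoA, 2 of 5 subunit genes rose and 3 did not pass the threshold. Over all genes tested 21.9% were called higher. PDHA1 encodes the catalytic alpha subunit and was at 66.8, 60.6 and 66.7 TPM with shGOT1 against 55.8, 54.0 and 51.9 TPM with shNC. The shGOT1 libraries were all higher, and the log2 fold change was 0.19 (SE 0.0366, adjusted p = 0.0068 in edgeR). DLAT encodes the acetyl-transferring core and was at 24.2, 26.6 and 24.7 TPM with shGOT1 against 18.4, 19.6 and 19.6 TPM with shNC. Its groups did not overlap either, and the log2 fold change was 0.46 (SE 0.115, adjusted p = 0.0195 in edgeR). Its p is near the threshold when libraries are left out: 4 of 6 such fits lost the call, with log2 fold changes of 0.37 to 0.45 in them. PDHB, the beta subunit partner of PDHA1, was at 63.1, 57.1 and 48.1 TPM with shGOT1 against 58.4, 46.4 and 56.7 TPM with shNC, with overlapping groups. PDHX anchors the shared dehydrogenase to the core, and its log2 fold change was 0.09 (adjusted p = 0.582 in edgeR). DLD is that dehydrogenase, used also by the alpha-ketoglutarate complex, and its log2 fold change was -0.05 (adjusted p = 0.339 in edgeR).

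The complex is switched off by the PDK kinases and switched on by the PDP phosphatases, and of the 4 regulators PDK1 and PDP1 fell. Over all genes tested 22.8% were called lower. PDK1, a kinase known as a target of hypoxia signalling, was at 16.6, 17.7 and 16.2 TPM with shGOT1 against 25.5, 22.9 and 20.8 TPM with shNC. All shGOT1 values were lower, and the log2 fold change was -0.46 (SE 0.0432, adjusted p = 0.000405 in edgeR). PDP1, the catalytic phosphatase, was at 9.92, 10.8 and 10.7 TPM with shGOT1 against 11.5, 15.7 and 10.8 TPM with shNC, and in TPM the groups overlapped. CPM values scale counts to library size after edgeR's TMM adjustment between libraries, and not to gene length. In CPM PDP1 was at 21.4, 22.5 and 21.2 CPM with shGOT1 against 25.3, 25.3 and 25.2 CPM with shNC, without overlap. The count test gave -0.22 (SE 0.0476, adjusted p = 0.0118 in edgeR), while the 5 limma fits on TPM or FPKM did not call it. PDK2 was at 22.5, 19.9 and 19.3 TPM with shGOT1 against 18.5, 17.3 and 20.9 TPM with shNC, and its log2 fold change was 0.01 (adjusted p = 0.866 in edgeR). PDK3 was at 17.2, 17.9 and 18.1 TPM with shGOT1 against 17.5, 15.0 and 19.8 TPM with shNC, and its log2 fold change was -0.09 (adjusted p = 0.529 in edgeR). So neither of these kinases passed the test.

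All 4 genes of the routes that add or remove carbon dioxide around pyruvate were called, 2 lower and 2 higher. Over all genes tested 44.6% were called in either direction. PC, pyruvate carboxylase, makes oxaloacetate from pyruvate and had the largest called change and the lowest level of the 42 genes. It had 173, 210 and 232 counts with shGOT1 against 231, 292 and 282 counts with shNC. Scaled to the adjusted library size it was at 6.33, 6.58 and 5.796 CPM with shGOT1 against 9.02, 10.5 and 9.99 CPM with shNC. Every shGOT1 library was lower. The log2 fold change was -0.66 (SE 0.0975, adjusted p = 0.00251 in edgeR), a fold of 0.633. In TPM it was at 4.25, 4.18 and 3.33 TPM with shGOT1 against 4.69, 4.73 and 4.43 TPM with shNC, and the shGOT1 mean differed from the shNC mean by -15.1%. The 5 limma fits on TPM or FPKM gave log2 fold changes from -0.28 to -0.11 and did not call PC, which overlaps LRFN4 on the opposite strand. PCK2, the mitochondrial phosphoenolpyruvate carboxykinase, was at 80.0, 77.3 and 76.5 TPM with shGOT1 against 94.8, 87.6 and 89.0 TPM with shNC. Its groups did not overlap, and the log2 fold change was -0.30 (SE 0.0337, adjusted p = 0.00079 in edgeR).

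Both mitochondrial malic enzymes, which make pyruvate from malate, rose. ME2, the NAD-dependent enzyme, was at 27.3, 23.1 and 24.8 TPM with shGOT1 against 18.5, 19.1 and 21.8 TPM with shNC. The lowest shGOT1 value lay above the highest shNC value, and the log2 fold change was 0.31 (SE 0.03999, adjusted p = 0.00153 in edgeR). ME3, the NADP-dependent enzyme, was at 9.0, 10.1 and 9.88 TPM with shGOT1 against 6.61, 8.03 and 6.91 TPM with shNC. It was higher in all shGOT1 libraries, with a log2 fold change of 0.44 (SE 0.0901, adjusted p = 0.00906 in edgeR).

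At citrate, ACLY fell and CS was split within the control group. ACLY encodes the ATP-citrate lyase that splits exported citrate into acetyl-CoA and oxaloacetate in the cytosol, and it was at 153, 149 and 150.1 TPM with shGOT1 against 171, 171 and 176 TPM with shNC. Its groups stood apart with little spread, and the log2 fold change was -0.31 (SE 0.0206, adjusted p = 0.000106 in edgeR). CS encodes citrate synthase, the entry step of the cycle, and was at 143, 141 and 145 TPM with shGOT1 against 58.4, 51.6 and 143 TPM with shNC. The shNC replicates 1 and 2 were low, whereas shNC replicate 3 lay among the shGOT1 libraries. The counts were 5863, 6839 and 8614 in shGOT1 against 1781, 1892 and 6538 in shNC, so the split was in the counts too. With all libraries the log2 fold change was 0.80 (SE 0.4898, adjusted p = 0.235 in edgeR) and not called. Without shNC replicate 3 it was 1.64 (adjusted p = 3.89e-05 in edgeR), and 1 library thus decides the call. AC073896.1, the gene that overlaps CS on the same strand, had counts of 115, 117 and 82 in shNC and did not show the same split. Of the 42 genes only CS had 1 library at least 2-fold from both others of its group, namely shNC replicate 3. Among 10170 genes compared, 84 lay this far off in shNC replicate 3, and 71 to 80 in each of the other libraries. Such genes were thus about as common in the other libraries, and the split is not particular to CS or to shNC replicate 3. What sets shNC replicate 3 apart for CS was not tested.

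Isocitrate dehydrogenase occurs in 3 forms, and 1 gene rose, 1 fell and 3 were not called (40% called, beside 44.6% of all genes tested). IDH1, the cytosolic NADP-dependent enzyme, which supplies NADPH outside the mitochondrion, was at 182, 185 and 183 TPM with shGOT1 against 123, 131 and 124 TPM with shNC. The groups were far apart compared with their spread, and the log2 fold change was 0.40 (SE 0.0352, adjusted p = 0.000313 in edgeR). IDH2, its mitochondrial counterpart, was at 284, 303 and 248 TPM with shGOT1 against 265, 258 and 285 TPM with shNC. Those values overlapped, and the log2 fold change was -0.08 (adjusted p = 0.391 in edgeR). The NAD-dependent enzyme of the cycle is built from IDH3A, IDH3B and IDH3G. IDH3G, a regulatory subunit, was at 100.1, 93.3 and 96.6 TPM with shGOT1 against 117, 109.7 and 108 TPM with shNC. Every shGOT1 value was lower, with a log2 fold change of -0.27 (SE 0.0482, adjusted p = 0.00541 in edgeR), and it overlaps SSR4 on the opposite strand. IDH3A, the catalytic subunit, was at 19.2, 20.5 and 21.8 TPM with shGOT1 against 16.6, 18.6 and 22.3 TPM with shNC, with shNC replicate 3 the highest of the 6 libraries. IDH3B was at 67.9, 71.9 and 72.8 TPM with shGOT1 against 73.4, 74.4 and 66.8 TPM with shNC and was not called (adjusted p = 0.135 in edgeR), though without shNC replicate 3 its log2 fold change was -0.16 and was called.

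From alpha-ketoglutarate to malate 1 of 6 genes was called, beside 44.6% of all genes tested, and this was SUCLA2. It encodes the ADP-forming beta subunit of succinyl-CoA ligase and was at 40.1, 32.4 and 40.2 TPM with shGOT1 against 30.4, 26.6 and 32.4 TPM with shNC. The lowest shGOT1 value, in replicate 2, was just above the highest shNC value, and the log2 fold change was 0.24 (SE 0.0558, adjusted p = 0.016 in edgeR). The call was lost in 7 of the 17 alternatives. SUCLG2, the GDP-forming beta subunit, was at 26.7, 23.9 and 25.1 TPM with shGOT1 against 23.5, 24.7 and 24.9 TPM with shNC and overlapped between groups. SUCLG1, the alpha subunit that both forms share, was at 118, 121 and 116 TPM with shGOT1 against 118, 116 and 116 TPM with shNC, a spread of a few TPM. SUCLG1 had a log2 fold change of -0.08 (adjusted p = 0.0803 in edgeR).

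OGDH, the first enzyme of the alpha-ketoglutarate dehydrogenase complex, was at 54.4, 53.5 and 56.2 TPM with shGOT1 against 44.8, 45.7 and 48.5 TPM with shNC. The TPM values did not overlap, but the log2 fold change in counts was 0.16 (SE 0.0642, adjusted p = 0.0892 in edgeR), and 6 of the 17 alternatives called it. DLST, the core of the same complex, was at 61.9, 65.3 and 72.1 TPM with shGOT1 against 62.1, 62.3 and 91.9 TPM with shNC. The highest value was in shNC replicate 3. DLST had a log2 fold change of -0.05 (SE 0.308, adjusted p = 0.921 in edgeR) with all libraries, and 0.39 (adjusted p = 0.0923 in edgeR) without that replicate. FH, fumarase, was at 116, 113 and 117 TPM with shGOT1 against 103, 109 and 104 TPM with shNC. The count test gave 0.03 (adjusted p = 0.547 in edgeR), though the groups did not overlap in TPM.

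Fatty acid oxidation held 14 of the 42 genes, of which 5 rose, 4 fell and 5 were not called (64.3% called, beside 44.6% of all genes tested), with a median log2 fold change of 0.01. Both carnitine palmitoyltransferases among the 42 genes rose slightly. CPT1A, the outer membrane enzyme that sets the rate of fatty acid entry, was at 55.2, 55.9 and 55.9 TPM with shGOT1 against 48.5, 46.8 and 47.3 TPM with shNC. The groups did not overlap, but the log2 fold change was only 0.11 (SE 0.0328, adjusted p = 0.0319 in edgeR). CPT2 moves the fatty acid from carnitine to coenzyme A inside the mitochondrion. It was at 45.1, 39.8 and 43.0 TPM with shGOT1 against 35.4, 32.0 and 34.6 TPM with shNC. It was higher in each shGOT1 library, with a log2 fold change of 0.24 (SE 0.0692, adjusted p = 0.0342 in edgeR). The calls were lost in 6 alternatives for CPT1A and in 5 for CPT2. CPT1B and CPT1C, outside the 42 genes, were named after their values were seen. CPT1B was at 75.3, 70.8 and 75.1 TPM with shGOT1 against 94.8, 97.0 and 89.2 TPM with shNC. It fell, with a log2 fold change of -0.46 (SE 0.0496, adjusted p = 0.00067 in edgeR). CPT1C, below 1 TPM in every library, was not called (0.82, adjusted p = 0.0505 in edgeR).

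The acyl-CoA dehydrogenases start each round and differ by chain length. ACADM, for medium chains, was at 37.6, 48.9 and 49.5 TPM with shGOT1 against 30.9, 29.1 and 26.7 TPM with shNC. It was the largest called rise among the 42 genes, with a log2 fold change of 0.47 (SE 0.0887, adjusted p = 0.0069 in edgeR), and no group value overlapped. RABGGTB overlaps ACADM on the same strand and was at 39.5, 35.0 and 36.8 TPM in shGOT1 and 35.3, 33.6 and 35.5 TPM in shNC. ACADS, for short chains, was at 32.8, 34.6 and 32.3 TPM with shGOT1 against 35.7, 35.6 and 40.8 TPM with shNC. All shGOT1 values were lower, and the log2 fold change was -0.29 (SE 0.0628, adjusted p = 0.0115 in edgeR), while the 3 limma fits on unscaled TPM and that on FPKM did not call it. ACADVL, for very long chains, was at 285, 205 and 232 TPM with shGOT1 against 244, 235 and 294 TPM with shNC, so the groups overlapped in TPM. Its log2 fold change was -0.16 (SE 0.0508, adjusted p = 0.0487 in edgeR), lost in 13 of the 17 alternatives. The 20 tested genes around ACADVL had a median log2 fold change of -0.35, the lowest of the 42 neighbourhoods.

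HADHA and HADHB encode the alpha and beta subunits of the mitochondrial trifunctional protein, which carries out the last steps of each round on long chains. The genes lie head to head on chromosome 2, with starts 307 bases apart at 26244632 on the minus strand and 26244939 on the plus strand, so their promoter windows overlap by 194 bases. Both windows are shown, 250 bases before to 50 after the start, from RefSeq on GRCh38.p14, because the windows share a stretch while only HADHA was called. The HADHA window is chr2:26244583-26244882 on the minus strand and the HADHB window chr2:26244689-26244988 on the plus strand, each written 5′ to 3′ on the gene's own strand. No capitals appear, since none of the motifs searched was found in either.
HADHA: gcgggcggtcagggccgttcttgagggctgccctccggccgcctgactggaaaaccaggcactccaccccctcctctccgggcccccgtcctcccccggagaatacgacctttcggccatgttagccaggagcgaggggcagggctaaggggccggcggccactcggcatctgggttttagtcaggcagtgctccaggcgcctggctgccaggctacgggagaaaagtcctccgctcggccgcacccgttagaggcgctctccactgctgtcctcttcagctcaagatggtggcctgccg
HADHB: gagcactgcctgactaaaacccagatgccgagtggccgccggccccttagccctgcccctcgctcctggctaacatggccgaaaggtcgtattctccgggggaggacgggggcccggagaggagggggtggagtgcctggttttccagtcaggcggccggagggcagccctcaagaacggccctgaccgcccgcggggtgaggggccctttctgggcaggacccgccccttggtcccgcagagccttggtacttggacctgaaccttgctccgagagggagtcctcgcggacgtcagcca

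HADHA was at 234, 230.2 and 238 TPM with shGOT1 against 245, 251 and 249 TPM with shNC. All shGOT1 values lay below all shNC values, and the log2 fold change was -0.19 (SE 0.0208, adjusted p = 0.000735 in edgeR). HADHB was at 157, 141 and 153 TPM with shGOT1 against 124, 128 and 139 TPM with shNC. In TPM it was higher in every shGOT1 library, but the log2 fold change in counts was 0.08 (adjusted p = 0.202 in edgeR). In the deposited table, whose coordinates differ from the RefSeq starts, the genes overlap (HADHA ends at 26244726 and HADHB starts at 26243170), so reads there could be split between them. HADH, the short-chain hydroxyacyl-CoA dehydrogenase, was at 52.5, 48.5 and 53.6 TPM with shGOT1 against 50.3, 56.7 and 45.2 TPM with shNC. ECHS1, the short-chain enoyl-CoA hydratase, was at 129, 138 and 137 TPM with shGOT1 against 130.3, 127 and 126 TPM with shNC. Neither was called, with log2 fold changes of 0.04 for HADH and -0.03 for ECHS1.

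Of the 2 auxiliary enzymes for double bonds among the 42 genes, 1 rose and 1 fell. Over all genes tested 21.9% were called higher and 22.8% lower. DECR1, the mitochondrial dienoyl-CoA reductase, was at 150.4, 179.6 and 154 TPM with shGOT1 against 109, 137 and 117 TPM with shNC. All shGOT1 values were higher, with a log2 fold change of 0.32 (SE 0.106, adjusted p = 0.0487 in edgeR), and NBN overlaps it on the opposite strand. ECI1, an enoyl-CoA isomerase, was at 72.7, 78.0 and 59.3 TPM with shGOT1 against 61.2, 89.7 and 81.2 TPM with shNC, and its groups overlapped in TPM. In CPM, with the adjusted library sizes, it was at 41.9, 44.8 and 39.1 CPM with shGOT1 against 45.1, 51.9 and 50.8 CPM with shNC. The groups did not overlap there, with the highest shGOT1 value just below the lowest shNC value. The log2 fold change was -0.23 (SE 0.0755, adjusted p = 0.0465 in edgeR). Both p-values lie close to the threshold, and the call was lost in 7 of the 17 alternatives for DECR1 and in 12 for ECI1.

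The electron transfer flavoprotein takes electrons from the acyl-CoA dehydrogenases. ETFA, its alpha subunit, was at 141, 143 and 141 TPM with shGOT1 against 124, 126 and 128 TPM with shNC. The shGOT1 libraries were all higher, and the log2 fold change was 0.13 (SE 0.0375, adjusted p = 0.0319 in edgeR). ETFB, its beta subunit, was at 233, 239.5 and 228 TPM with shGOT1 against 222, 204 and 219 TPM with shNC. In TPM shGOT1 was higher throughout, but the log2 fold change in counts was -0.02 (adjusted p = 0.697 in edgeR). ETFDH, which passes the electrons on to ubiquinone, was at 16.4, 14.3 and 18.4 TPM with shGOT1 against 17.2, 20.1 and 20.1 TPM with shNC. It missed the threshold with a log2 fold change of -0.23 (SE 0.08004, adjusted p = 0.0558 in edgeR).

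A ratio between 2 members within a library does not depend on the scaling between libraries, and 12 pairs were compared by TPM. The groups did not overlap in 7 pairs, each with an exact 2-sided permutation p of 0.1, the smallest that 3 against 3 libraries allow, and a Benjamini-Hochberg adjusted value of 0.171 over the 12. No pair could therefore pass 0.05. Among single genes tested, 55.2% had TPM values that did not overlap between the groups, and no share over other pairs was computed. The pairs were chosen with earlier results of these data known. Cytosolic IDH1 relative to mitochondrial IDH2 was 0.643, 0.6099 and 0.739 with shGOT1 against 0.464, 0.506 and 0.435 with shNC, higher throughout in shGOT1. MPC1 relative to MPC2 was 2.92, 2.51 and 2.54 with shGOT1 against 3.49, 3.28 and 3.75 with shNC, lower throughout. HADHA relative to HADHB was 1.49, 1.64 and 1.56 with shGOT1 against 1.98, 1.96 and 1.79 with shNC, which is again lower. PDK3 relative to PDK1 was 1.03, 1.01 and 1.11 with shGOT1 against 0.685, 0.654 and 0.952 with shNC. SUCLA2 relative to SUCLG2, the ADP-forming against the GDP-forming subunit, was 1.502, 1.35 and 1.602 with shGOT1 against 1.298, 1.07 and 1.30 with shNC. Both of these ratios were higher in every shGOT1 library. PC relative to PDHA1, the carboxylating against the oxidising route of pyruvate, was 0.0637, 0.0690 and 0.0499 with shGOT1 against 0.0840, 0.0876 and 0.0853 with shNC, lower in shGOT1. ACLY relative to CS was 1.07, 1.05 and 1.04 with shGOT1 against 2.93, 3.31 and 1.23 with shNC, with shNC replicate 3 close to the shGOT1 libraries as in the CS values. The groups overlapped for PDK1/PDP1, IDH3A/IDH3G, ME2/ME3, CPT1A/CPT2 and ETFA/ETFB.

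**Figure D3:**
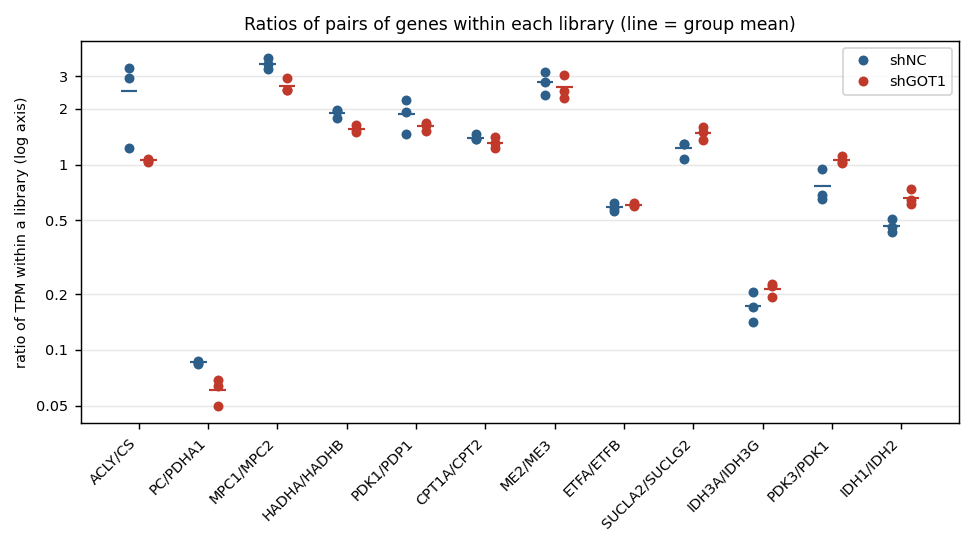
Ratio of TPM between the members of 12 pairs in each library on a log axis, shGOT1 beside shNC. IDH1/IDH2 is 0.610 to 0.739 in shGOT1 and 0.435 to 0.506 in shNC, and MPC1/MPC2 is 2.51 to 2.92 against 3.28 to 3.75.

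RefSeq promoter windows of 300 bases on GRCh38.p14 were found for 38 of the 42 genes. Exact matches to 5 motifs were counted on both strands: CCAAT (NF-Y), AAGGTCA (ESRRA), GCATGCGC (NRF1), TGACGTCA (CREB) and CACGTG (E-box). CCAAT was found in 23 of 38 genes (60.5%), against 43% of 10928 tested genes and 39.7% of 27305 genes with a window. It was in 6 of 10 genes that rose, 6 of 10 that fell and 11 of 18 that were not called. The windows of the members were rich in G and C, with a median of 67.7% against 58.7% over all windows. AAGGTCA was found in SUCLA2 alone (2.63% against 3.74% of tested genes), GCATGCGC in DLD alone (2.63% against 6.06%), TGACGTCA in 0 of 38 (against 3.63%), and CACGTG in ME3, PDHB and PDK2 (7.89% against 12.5%). A match describes letters only and is not a measured binding site.

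IDH1, which rose, and ACLY and MPC1, which fell, each held 2 CCAAT matches in a window, and these windows are shown because the same letters occur in genes that moved in opposite directions. They are chr2:208255022-208255321 for IDH1, chr17:41918902-41919201 for ACLY and chr6:166382891-166383190 for MPC1, all on the minus strand of GRCh38.p14 and from RefSeq. Capitals mark CCAAT or its reverse complement ATTGG, and the sequences run 5′ to 3′ on the gene's own strand. In the windows shown, the matches start 121 and 107 bases before the start of IDH1 and 136 and 94 bases before that of ACLY. In MPC1 1 lies 107 bases before the start and the other just after it. ACLY has another start, with the same matches 65 and 23 bases before it, and IDH1 has another window without a CCAAT match.
IDH1: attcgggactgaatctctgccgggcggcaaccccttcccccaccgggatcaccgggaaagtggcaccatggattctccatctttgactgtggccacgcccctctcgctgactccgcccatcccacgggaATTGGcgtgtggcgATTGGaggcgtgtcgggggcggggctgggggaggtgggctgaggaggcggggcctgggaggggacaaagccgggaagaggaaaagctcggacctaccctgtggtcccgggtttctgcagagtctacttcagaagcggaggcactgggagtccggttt
ACLY: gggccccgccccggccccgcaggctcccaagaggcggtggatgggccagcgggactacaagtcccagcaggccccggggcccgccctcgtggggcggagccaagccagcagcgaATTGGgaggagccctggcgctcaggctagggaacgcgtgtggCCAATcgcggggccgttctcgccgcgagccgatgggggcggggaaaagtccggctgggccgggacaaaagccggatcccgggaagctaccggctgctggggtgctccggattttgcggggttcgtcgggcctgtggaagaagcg
MPC1: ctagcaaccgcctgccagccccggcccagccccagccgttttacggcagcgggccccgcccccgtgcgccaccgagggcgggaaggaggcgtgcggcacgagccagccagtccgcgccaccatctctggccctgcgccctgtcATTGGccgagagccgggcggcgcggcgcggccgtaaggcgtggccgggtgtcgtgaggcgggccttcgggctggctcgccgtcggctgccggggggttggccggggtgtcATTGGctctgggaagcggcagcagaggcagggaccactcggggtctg

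By position the 42 genes are spread over 19 chromosomes. The tested genes around each member, 16 to 20 of them, had median log2 fold changes from -0.35 around ACADVL to 0.28 around ETFB, and 2 of the 42 medians exceeded 0.25 in size. Around the clearest movers the neighbourhood median was 0.12 for IDH1, 0.00 for ACADM, 0.08 for PDK1, -0.02 for MPC1 and 0.16 for ACLY. Among genes that fell, the neighbours' median was above 0 for PDP1 (0.20), ACLY (0.16), HADHA (0.09), PDK1 (0.08) and PC (0.05). It was -0.35 for ACADVL, -0.17 for ECI1 and between -0.02 and -0.01 for MPC1, ACADS, PCK2 and IDH3G. Among genes that rose, it was below 0 only for SUCLA2 and ME2, and highest for CPT2 (0.17) and DECR1 (0.15). The part played by position was not tested. Of the 42 genes 20 overlap another listed gene, 3 of them on the same strand. Of these 20 genes 11 were called, beside 52.4% of the 42 and 44.6% of all genes tested. Whether counting used the strand is not given in the sources used here, so the values of genes that overlap on the opposite strand are uncertain to that extent. For ACADM, CS and ETFB, which overlap a gene on the same strand, the strand cannot separate shared reads under either setting.

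Further genes of the same pathways were counted from lists, beside 21.9% called higher and 22.8% called lower over all genes tested. Of 34 other citric acid cycle and pyruvate genes 31 were tested, with 5 higher and 5 lower (32.3% called, beside 44.6% of all genes), and a median log2 fold change of 0.02. Of 34 other fatty acid oxidation genes 33 were tested, with 5 higher and 12 lower (51.5% called), and a median of -0.08. Of 20 transcriptional regulators of oxidative metabolism 19 were tested, with 2 higher and 5 lower (36.8% called), and a median of -0.09.

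Where the higher group of a listed gene averaged 5 TPM or more, the 8 largest called changes follow, 4 higher and 4 lower. Below that level OGDHL, a relative of OGDH named after its values were seen, was at 3.28, 3.09 and 3.33 TPM with shGOT1 against 0.970, 1.07 and 0.768 TPM with shNC, and its log2 fold change was larger, 1.68 (SE 0.1495, adjusted p = 0.000326 in edgeR). ECI2, an enoyl-CoA isomerase related in function to ECI1, was at 25.6, 24.2 and 21.1 TPM with shGOT1 against 8.91, 7.63 and 8.02 TPM with shNC. The log2 fold change was 1.43 (SE 0.108, adjusted p = 0.000167 in edgeR), opposite in direction to ECI1. SLC16A1, a monocarboxylate carrier that moves pyruvate and lactate across the plasma membrane, was at 49.1, 46.5 and 47.5 TPM with shGOT1 against 25.1, 26.4 and 26.2 TPM with shNC. It rose with a log2 fold change of 0.90 (SE 0.0523, adjusted p = 6.65e-05 in edgeR). EHHADH, the peroxisomal bifunctional enzyme, had a log2 fold change of 0.88 (SE 0.0765, adjusted p = 0.000289 in edgeR), and its neighbours' median was 0.43. ACACB, an acetyl-CoA carboxylase whose product inhibits CPT1A, had one of 0.51 (SE 0.0852, adjusted p = 0.00402 in edgeR).

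SDHB, the iron-sulphur subunit of succinate dehydrogenase, was at 84.6, 91.7 and 84.3 TPM with shGOT1 against 131, 138 and 142 TPM with shNC. It fell with a log2 fold change of -0.76 (SE 0.0527, adjusted p = 0.000128 in edgeR), in a stretch whose neighbours had a median of -0.61. ACAA1, the peroxisomal thiolase, fell with a log2 fold change of -0.53 (SE 0.0542, adjusted p = 0.000545 in edgeR). Of the regulators, NRIP1, a corepressor of oxidative genes, had a log2 fold change of -0.87 (SE 0.201, adjusted p = 0.0146 in edgeR). PPARG, a fatty acid-responsive receptor, had one of -0.57 (SE 0.106, adjusted p = 0.00613 in edgeR), and both fell.

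**Figure D4:**
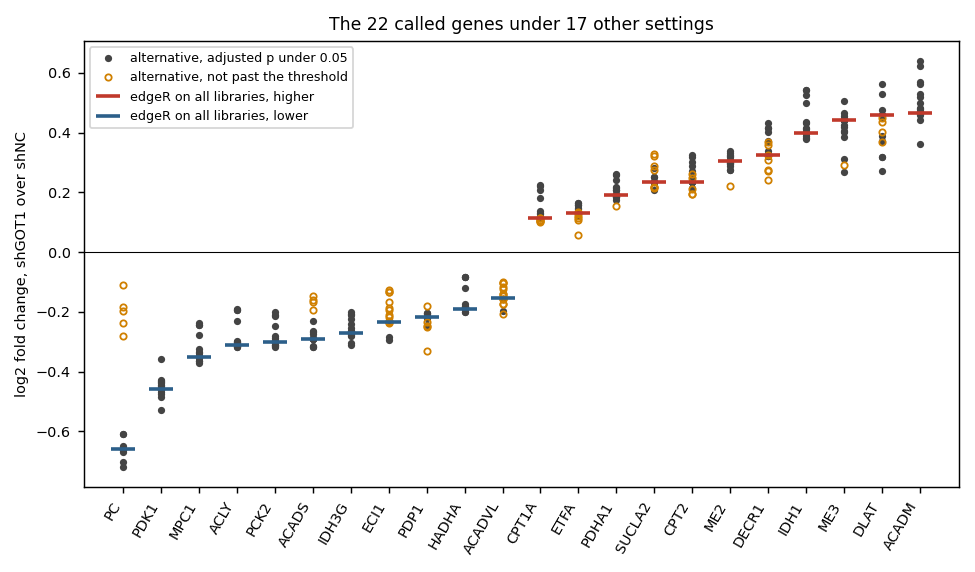
Log2 fold changes of the 22 called genes with all libraries in edgeR (bars, red for higher and blue for lower) and under 17 alternatives (points, filled where the adjusted p was under 0.05 and open where not). No point crosses 0, all points are filled for 8 genes, and ACADVL has 13 open points.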

How the data were processed

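mRNA was captured with oligo(dT) from THP-1 RNA, per the labels' protocols, and 6 libraries were sequenced, 3 for shGOT1 and 3 for shNC. The submitters' processing notes name StringTie, FastQC, Trimmomatic and DESeq2. For these tools no version, and for the alignment no aligner, build or strand setting, is given: they were not given in the sources used here.

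As deposited, the count values are whole and unnormalized, 1 per gene and library. The authors' TPM values correct for gene length and sum to nearly the same total in each library. The authors' FPKM values correct for gene length and sequencing depth. StringTie, where it makes counts, derives them from coverage. Table coordinates equal those of GENCODE release 29 on GRCh38 for 36 of the 42 genes.

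Counts were tested with edgeR 4.0.16 in R 4.3.3 (filterByExpr, TMM, glmQLFit and glmQLFTest, 2-sided) over 13735 genes, with all 6 libraries, no covariate and a Benjamini-Hochberg threshold of 0.05. The SE is the log2 fold change divided by the square root of F. CPM values use TMM library sizes. Totals of 26226977 to 39144890 counts per sample set the precision, and each group has 3 libraries. The fit was checked on simulated data with 98 tested genes changed 1.5-fold and 98 changed 2-fold. It called 39.8% of the former and 68.4% of the latter in the right direction, and 0.0905% of unchanged genes. A gene that is not called can therefore still have changed. Fewer genes changed there than were called here, so these shares need not hold for the data. Alternatives were DESeq2 1.42.0, other size factors and filters, the replicate number as a block, each library left out, and limma 3.58.1 on log2 TPM or FPKM. One more, without the 20 highest and the mitochondrial-genome genes, was chosen after seeing the data.

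The members, the other lists, the pairs and the motifs were chosen with earlier results of these data known. All 42 members are named. Of other pathway genes, the 8 largest called changes are named, provided the higher group averaged 5 TPM or more. A few others are named after their values were seen. Some genes of the lists are not reported here by name.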

Additional observations from a re-analysis of the deposited data

How the results depend on the processing

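Of 713 results for single members under 17 alternatives, 575 kept their direction and their side of the threshold, 77 lost the call, 14 gained it and 47 turned in sign, 0 of them for a called member. Of the 22 called members 14 were called in every fit that left out 1 library. Members called numbered 12 (5 higher, 7 lower) in limma on log2(TPM + 1) after median-of-ratios scaling, against 22 (11 higher, 11 lower) in edgeR. Members called lower numbered 6 in limma on log2 TPM with a pseudocount of 1, 0.1 or 5 and 6 on log2(FPKM + 1). With 1 library left out, members called higher ranged from 6 to 8.

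The 47 values whose sign turned belong to 13 members that were called neither in edgeR nor there. On log2 TPM with pseudocounts of 1, 0.1 and 5 they were 0.0572, 0.0584 and 0.0526 for DLD, 0.0760, 0.0766 and 0.0738 for ECHS1, 0.1163, 0.1168 and 0.1143 for ETFB, 0.0429, 0.0430 and 0.0423 for IDH2, 0.0305, 0.0325 and 0.0239 for PDK3, 0.0204, 0.0205 and 0.0197 for SUCLG1 and 0.0466, 0.0482 and 0.0404 for SUCLG2. On FPKM they were 0.0197 for DLD, 0.0380 for ECHS1, 0.0781 for ETFB, -0.0111 for HADH, 0.0051 for IDH2 and 0.0096 for SUCLG2. After median-of-ratios scaling they were 0.0106 for ETFB, -0.0782 for HADH, -0.0020 for IDH3A and -0.0467 for PDHB. With the replicate block the value was 0.0333 for DLST. With 1 library left out these values ranged from -0.2436 to 0.3863 for DLST, -0.0488 to 0.0064 for ECHS1, -0.0399 to 0.0029 for ETFB, -0.0303 to 0.1121 for HADH, -0.1184 to 0.1984 for IDH3A, -0.0944 to 0.1101 for PDHB, -0.0183 to 0.1729 for PDHX, -0.0138 to 0.0371 for PDK2 and -0.1864 to 0.0074 for PDK3.

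The members' median log2 fold change, -0.0069 in edgeR, was 0.0209 with a mean of at least 5 TPM (which leaves PC without a value), -0.0352 to 0.0092 with 1 library left out, 0.0668, 0.0675 and 0.0638 on log2 TPM with pseudocounts of 1, 0.1 and 5, -0.0379 after median-of-ratios scaling and 0.0290 on FPKM. With the replicate block it was 0.0066, with 10 members higher and 9 lower and 5222 genes called in place of 6128. Same-numbered samples deviated together with correlations of 0.0282, 0.0089 and -0.0003, so the numbers were not taken to pair the samples. On log2(TPM + 1) the median shift over all genes was 0.10 in log2, and the calls were 66.4% higher against 49% with counts and 60.5% on FPKM. With median-of-ratios scaling of TPM the median shift was -0.0021 and 49% of calls were higher. The upward shift and the lean of calls were thus seen only on TPM or FPKM without that scaling. What makes the unscaled values differ was not tested.

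The limits are 3 libraries a group, 1 cell line, an unknown strand setting and changes mostly under 0.5 in log2. The calls of ACADVL, ECI1, SUCLA2, DECR1, CPT1A and ETFA were lost in 6 or more alternatives, and the values of CS and DLST turn on shNC replicate 3.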

Other observations

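Some regulators known for mitochondrial and fatty acid genes are given here as values, chosen after their values were seen. PPARGC1A, the coactivator PGC-1alpha, was at 0.0440, 0 and 0 TPM with shGOT1 and at 0.0364, 0.0402 and 0.0943 TPM with shNC, and was not tested. ESRRA, its partner receptor, was at 64.1, 69.3 and 67.6 TPM with shGOT1 and 68.6, 40.1 and 64.3 TPM with shNC, with shNC replicate 2 the lowest of the libraries. PPARA, the receptor that drives fatty acid oxidation in liver, was at 4.46, 4.68 and 3.76 TPM with shGOT1 and 4.87, 6.41 and 3.43 TPM with shNC, so its groups overlapped. Its log2 fold change in counts was -1.16 (SE 0.493, adjusted p = 0.104 in edgeR). Of the 19 regulators tested, 5 were called lower and 2 higher. The higher ones were TFAM, with a log2 fold change of 0.26 (adjusted p = 0.00462 in edgeR), and PPRC1, with 0.22 (adjusted p = 0.014 in edgeR). NRF1 was not called (-0.10, adjusted p = 0.584 in edgeR).

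MDH2, the mitochondrial malate dehydrogenase, was also chosen after its values were seen and was at 329, 333 and 332 TPM with shGOT1 and 329, 330.1 and 332 TPM with shNC. Its TPM values overlapped while the count test called it lower, with a log2 fold change of -0.10 (adjusted p = 0.00645 in edgeR).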
